A study of Mus musculus with 24 samples.

Results

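The 24 arrays of a mouse muscle study fell on either side of a wide gap in 3 lymphocyte genes, and the arrays above it are compared here with those below. For Cd79b (a chain of the B cell receptor complex), Cd3e (a chain of the T cell receptor complex) and Fcmr (an Fc receptor for IgM on lymphocytes), the brightest probe of each, by its mean across arrays, was taken from the submitters' log2 values, and the 3 levels were averaged on each array. The arrays were thus selected on measured levels of these 3 genes. An array was called high at 7.5 or more (log2 signal) and low under 7.5. This gave 11 high and 13 low arrays of 24. Since the readout itself made the sides, all differences between high and low arrays below are descriptions with no test.

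The arrays held RNA of the gastrocnemius-soleus complex, the calf muscle group, from female mice aged 5 weeks. The 4 groups of 6 arrays were wild type at rest, wild type after a run, transgenic at rest and transgenic after a run. Transgenic mice overexpressed the alpha7BX2 integrin, a receptor that ties muscle fibres to laminin. Which promoter drives the transgene is not stated in the sources used. The run was a single 40 min bout on a treadmill sloping 20 degrees downhill at 17 m/min, and muscle was taken 3 h after it. No group differed in anything else that the labels give.

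Lymphoid tissue is built around naive lymphocytes that recirculate between blood and lymph. High endothelial venules carry sulphated sugars on mucins such as Glycam1, which L-selectin on lymphocytes binds. Stromal cells then sort the entering cells with chemokines, Cxcl13 drawing B cells into follicles and Ccl19 and Ccl21 drawing T cells and dendritic cells into the T zone. Skeletal muscle itself consists mostly of fast and slow fibres, with vessels, nerve, connective tissue and scattered immune cells between them.

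The arrays were alike in brightness, and more probes were detected on the high ones. Median raw intensity ran from 107 to 138 in high and from 105 to 137 in low arrays, while 43.4% to 46.2% of probes were detected on the high arrays and 40.2% to 43.6% on the low ones. Fast fibre genes marked all 24 arrays as muscle, with a list mean between 14.44 and 14.71 (log2 signal). Itga7, which encodes the mouse α7 integrin chain, differed by 0.11 between genotypes (log2, SE 0.22, limma adjusted p = 1), and no source says whether its probe matches the transgene, so it does not check the genotype labels. Its level did differ along the split, from 7.90 to 9.36 on high and from 8.74 to 9.74 on low arrays, a difference of -0.74 (SE 0.18).

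The 3-gene mean left a gap of more than 2 log2 units with no array in it. The high arrays were wild type at rest replicates 6, 7 and 10, wild type run replicates 6 and 9, transgenic rest replicates 4 and 7, and transgenic run replicates 1, 3, 8 and 11. The lowest high array was transgenic run 11, at 8.55, and the highest low array transgenic rest 3, at 6.16. The other 10 high arrays lay between 9.80 and 11.62 and the other 12 low arrays between 4.84 and 5.54, as the plot of the 3-gene mean by group shows.

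**Figure D1:**
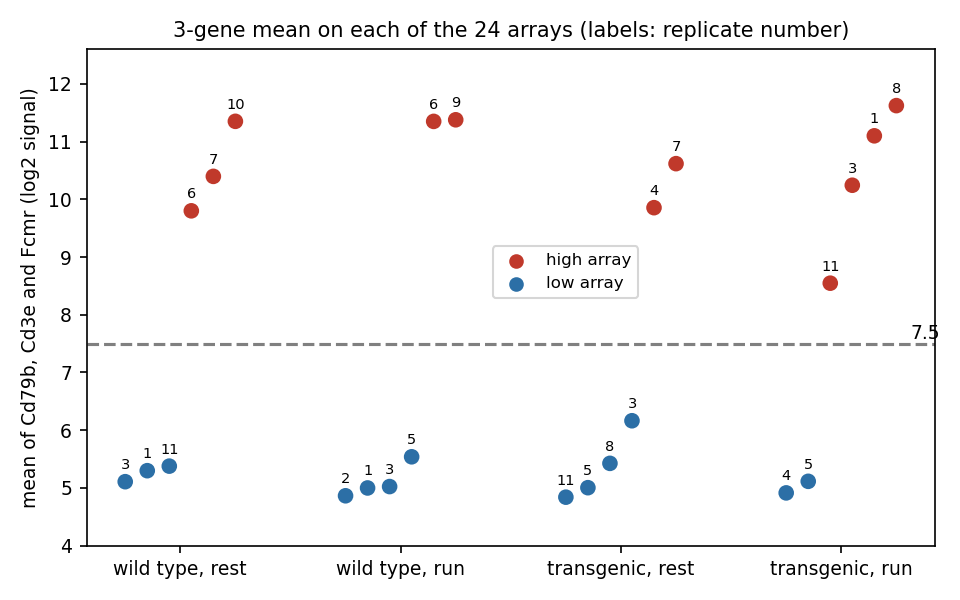
The mean of Cd79b, Cd3e and Fcmr (log2 signal) is plotted for each array in the 4 groups, with the replicate number beside each point, high arrays in red, low arrays in blue and the threshold of 7.5 dashed. All 4 groups hold arrays on both sides, and none lies between 6.16 and 8.55.

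Each labelled group held arrays of both sides. High arrays made up 3 of 6 in wild type at rest, 2 of 6 in wild type after the run, 2 of 6 in transgenic at rest and 4 of 6 in transgenic after the run. By genotype they were 5 of 12 wild-type and 6 of 12 transgenic arrays, and by activity 5 of 12 at rest and 6 of 12 after the run. Fisher's exact test, two-sided, gave p = 1 for genotype, p = 1 for the run and p = 0.808 for the 4 groups. A p that misses the threshold does not show that the shares are equal.

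The split accounted for a large share of how arrays of one group differed. It took 43.4% of the variation within groups over all genes, and the first principal component of that variation took 53.1%. More than 50% of a gene's variation within groups lay on the split in 11.9% of genes. Pairs of high arrays correlated across genes at a median r of 0.979, pairs of low arrays at 0.981 and mixed pairs at 0.955 (genes are not independent replicates).

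Of 14984 genes measured, 484 (3.23%) stood higher on each of the 11 high arrays than on any of the 13 low ones, and 19 (0.127%) stood lower on each. At least 2-fold differences adjusted for group ran the same way, with 663 genes (4.42%) higher and 6 (0.04%) lower, and 403 genes met both criteria. At least 4-fold differences were found in 258 genes, none of them lower. These shares were set by the rule that chose the arrays, and nothing is read from them. By any amount, 5782 of all genes (38.6%) stood higher on high arrays. Counts of list members higher or lower below are read against that share. Genes were kept if detected on at least 6 arrays, so members detected on no low array passed only through the high arrays. Such members could hardly stand lower, and they lend the counts no support. They were 8 of 20 B cell, 8 of 21 T cell and 4 of 14 stroma and venule members. In the neutrophil list they were 5 of 13 and in the homing list 2 of 11, with 1 each in the cytotoxic, dendritic and macrophage lists. Over all genes the median difference was -0.08 (log2). Scaling arrays by their median in place of quantile normalisation shifted it by 0.12, to 0.04, so small negative differences below are read against that shift.

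**Figure D2:**
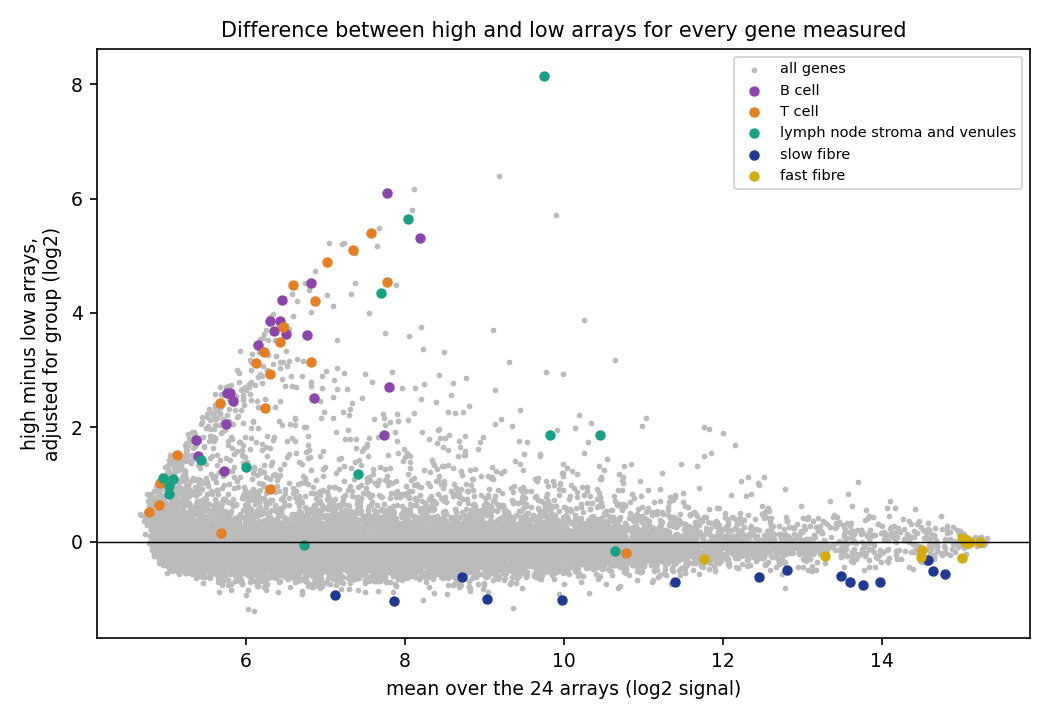
The difference between high and low arrays adjusted for group (log2) is plotted against the mean over the 24 arrays (log2 signal) for each of 14984 genes (grey), with members of 5 gene lists in colour. Most B cell, T cell and lymphoid stroma genes lie far above 0, slow fibre genes lie below it, and fast fibre genes, most of them at the top of the scale, lie near it.

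The largest difference of any named gene belonged to Glycam1, the venule mucin. Its level ran from 13.11 to 14.85 (median 14.24) on the 11 high arrays and from 4.39 to 9.53 (median 5.48) on the 13 low arrays, on 7 of which it was detected. The groups did not overlap, and the difference was 8.15 (log2, SE 0.65). The low arrays were themselves uneven for Glycam1: 4 of them, transgenic rest 3, wild type run 5, transgenic rest 8 and wild type rest 1, read 9.53, 9.40, 8.45 and 7.25, and the other 9 read 6.09 or less. Those 4 lay among the 5 low arrays with the highest 3-gene means.

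Cxcl13, the follicle chemokine, read between 9.75 and 12.55 (median 11.24) on high arrays and between 4.48 and 6.44 (median 5.27) on low ones, a difference of 5.64 (SE 0.40). Ccl19, the T zone chemokine, read between 8.51 and 11.34 (median 10.24) against 4.93 to 6.35 (median 5.71), a difference of 4.36 (SE 0.33). Neither overlapped between the sides, and both were highest on transgenic run 8.

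The T zone chemokine Ccl21 is encoded by near-identical copies that a probe may not tell apart. Ccl21a differed by 1.87 (SE 0.24) and Ccl21c by 1.86 (SE 0.26). Unlike Glycam1, both were detected on all 13 low arrays, at 8.17 to 9.69 for Ccl21a. Of the lymph node stroma and venule list, 12 of 14 measured members stood higher, 8 of them without overlap. The median difference was 1.24 beside -0.08 over all genes, and 0.53 without background correction. Il7, the lymphocyte survival cytokine, differed by 1.31 and Tnfsf11 (RANKL) by 1.42. The venule genes Chst4, Madcam1 and Fut7 were detected on no low array and stood at least 1.30-fold, 1.44-fold and 1.25-fold higher, where a bound sets the high mean against the lowest detectable signal on the low arrays. The 2 members that did not stand higher were Pdpn (podoplanin, -0.16) and Ltbr (the lymphotoxin β receptor, -0.06), the latter within the shift of the scaling.

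T cell genes stood higher as a group, 20 of 21 measured members, 14 of them without overlap, with a median of 3.12 (2.85 with members detected on no low array at their bound, and 1.47 without background correction). Cd3e, used by the rule, read between 7.55 and 10.70 on high arrays and between 4.59 and 5.54 on low arrays, 2 of which detected it. Of the other CD3 chains, Cd3d read 8.60 to 11.37 on high arrays and 6.38 or less on low arrays, and Cd3g differed by 5.10 (SE 0.29). Trbv13-2, a variable segment of the T cell receptor β chain, differed by 5.81 (SE 0.33), and Cd27, a costimulatory receptor, by 4.55 (SE 0.24).

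Cd6, a T cell surface receptor, was detected on all 11 high and on 0 of 13 low arrays and stood at least 14.3-fold higher. Its high arrays read from 6.90 (transgenic run 11) to 10.05 (transgenic run 8), and none of its low arrays exceeded 5.03. The T cell members apart from this pattern were the signalling chain Cd247 (0.14) and Cd8b1, a CD8 chain (-0.20), whose probe read 10.32 to 11.22 on low arrays. The coreceptor Cd4 was detected on 8 high and 0 low arrays, at least 1.07-fold higher.

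B cell genes all stood higher, 20 of 20 measured members, 17 of them without overlap, with a median of 3.07 (2.76 with bounds, and 1.77 without background correction). The rule's own members Fcmr and Cd79b differed by 6.10 (SE 0.33) and 5.31 (SE 0.31). Ltb (lymphotoxin β, which organises lymphoid tissue) differed by 4.53 (SE 0.28) and Pou2af1, a B cell coactivator, by 3.87 (SE 0.28). Tnfrsf13c, the receptor for the B cell survival factor BAFF, was detected on no low array and stood at least 11.8-fold higher, as did Cxcr5, the receptor for Cxcl13, at least 9.24-fold.

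Receptors for these ligands also stood higher. Lymphocyte homing and survival receptors stood higher in 11 of 11 members, 7 without overlap. Their median was 2.33, but 1.09 without background correction and 1.01 with probes detected on all 24 arrays. Of these receptors, Tnfrsf13c and Cxcr5 also belong to the B cell list and Il7r and Ccr7 to the T cell list. Ccr7, which binds Ccl19 and Ccl21, differed by 2.33 (SE 0.24), and Il7r, which binds Il7, by 3.14 (SE 0.24). Itgb7, an integrin chain whose dimer binds Madcam1, differed by 2.67 (SE 0.21). In bulk tissue, fewer cells of a type and less RNA per cell cannot be told apart.

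The promoters of the B cell, T cell and stromal lists, whether or not a member was measured or stood higher, were read for motifs of lymphoid transcription factors, and those of Cd3e, Blnk and Vpreb3 are shown because they carry such a motif, beside that of Glycam1, which carries none of those searched. Windows of 250 bases before to 50 after each gene start came from RefSeq on GRCm38.p6. Both strands were searched for the octamer ATTTGCAT, read by Oct factors with Pou2af1, for the Ets motif CAGGAAGT, for the PU.1 motif GAGGAAGT, and for the palindromic EBF and the κB motifs, each with 2 free central bases. The Ets and PU.1 letters share AGGAAGT. Capitals mark the octamer and the Ets motif, each shown as its reverse complement where it lies on the other strand.
Cd3e, chr9:45009562-45009861, minus strand: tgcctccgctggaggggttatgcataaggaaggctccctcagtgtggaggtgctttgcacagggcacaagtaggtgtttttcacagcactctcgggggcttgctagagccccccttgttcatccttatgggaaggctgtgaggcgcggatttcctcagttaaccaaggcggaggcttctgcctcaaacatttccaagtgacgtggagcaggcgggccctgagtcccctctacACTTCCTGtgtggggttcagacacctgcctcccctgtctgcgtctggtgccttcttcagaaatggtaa
Blnk, chr19:40994172-40994471, minus strand: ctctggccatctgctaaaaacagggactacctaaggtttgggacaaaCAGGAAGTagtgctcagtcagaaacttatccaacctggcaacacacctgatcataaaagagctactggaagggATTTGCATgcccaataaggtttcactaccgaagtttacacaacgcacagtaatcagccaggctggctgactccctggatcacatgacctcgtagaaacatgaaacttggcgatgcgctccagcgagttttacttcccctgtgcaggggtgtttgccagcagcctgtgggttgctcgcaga
Vpreb3, chr10:75948050-75948349, plus strand: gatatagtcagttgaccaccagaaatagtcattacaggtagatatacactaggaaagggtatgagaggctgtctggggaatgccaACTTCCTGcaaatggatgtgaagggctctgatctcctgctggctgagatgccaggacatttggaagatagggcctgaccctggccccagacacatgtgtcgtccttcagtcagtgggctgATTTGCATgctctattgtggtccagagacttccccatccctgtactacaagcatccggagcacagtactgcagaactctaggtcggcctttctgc
Glycam1, chr15:103565032-103565331, minus strand: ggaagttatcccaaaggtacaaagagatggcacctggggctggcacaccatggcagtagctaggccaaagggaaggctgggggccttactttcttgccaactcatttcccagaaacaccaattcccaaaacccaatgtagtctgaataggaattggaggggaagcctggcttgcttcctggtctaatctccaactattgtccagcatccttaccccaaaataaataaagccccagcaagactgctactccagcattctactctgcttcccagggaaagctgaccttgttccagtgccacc

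Of 27025 genes with a window of 300 bases, 1.75% held the octamer, 3.38% the Ets motif, 3.28% the PU.1 motif, 0.914% the EBF motif and 1.62% the κB motif. Among B cell list promoters the octamer was in 2 of 17, those of Blnk, an adaptor of B cell receptor signalling, and Vpreb3, a pre-B cell receptor associated protein. It was in 0 of 17 T cell and 0 of 13 stromal ones. The Ets motif was in 4 of 17 T cell promoters (Cd3e, Lck, Il7r and Cd247), in 3 of 17 B cell promoters and in 1 of 13 stromal promoters, that of Ltbr. Cd247 and Ltbr hold it although neither stood apart between the sides, and Lck and Cd79a, among those with it, had no measured value. The PU.1 motif was in 3 of 17 B cell promoters (Cd72, Cd37 and Btla), in 1 of 17 T cell promoters (Cd5) and in 0 of 13 stromal ones. EBF was in 1 of 17 B cell promoters (Cd22) and in 0 of the other 2 lists. The κB motif was in 1 of 17 B cell (Ltb), 0 of 17 T cell and 1 of 13 stromal promoters (Madcam1). A match is a description of these letters and names no bound factor.

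Blnk differed by 1.24 and Vpreb3, detected on no low array, by at least 4.04-fold. Neither was among the 17 B cell genes without overlap.

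Antigen presentation genes of MHC class II stood higher in 11 of 11 members, 3 without overlap, with a median of 1.95. H2-Oa, a chain of the peptide-loading regulator of B cells, differed by 4.34 (SE 0.22) and Ciita, the class II transactivator, by 3.14 (SE 0.24). H2-Eb1, a chain of the class II molecule, read 10.38 to 12.53 on high and 8.56 to 10.21 on low arrays, a difference of 2.08 (SE 0.30). Cd74, the invariant chain, overlapped between the sides, at 11.76 to 13.66 against 10.02 to 11.84.

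Cytotoxic genes were split. Ccl5 (4.48), Ctsw (3.27), Klrd1 (3.14) and Nkg7 (3.00) stood higher without overlap, while Eomes, Prf1, Il2rb and Tbx21 lay between 0.23 and 0.72 and overlapped, and Klrb1c lay at -0.17. Plasma cell genes had 3 of 5 members higher and a median of 0.02. Mzb1, a chaperone of B lineage cells, differed by 3.53 (SE 0.25) and the plasma cell surface marker Sdc1 by -0.09 (SE 0.14). In the germinal centre list only Pou2af1, shared with the B cell list, was without overlap, and Bcl6, the germinal centre repressor, lay at -0.28 (SE 0.18). Cell division genes stood higher in 13 of 14 members by a median of 0.26, none without overlap, and Top2a differed by 0.37 (SE 0.29).

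Myeloid genes differed less evenly, and their part in the lymphoid difference was not tested. Macrophage and monocyte genes stood higher in 13 of 14 members, 4 of them at least 2-fold, with a median of 0.36 that was -0.06 with the slow fibre list mean as a further covariate. Marco, a scavenger receptor of macrophages, was the 1 member without overlap. It read 6.90 to 9.32 on high arrays, was detected on no low array and stood at least 8.10-fold higher. Mpeg1, a pore-forming protein of macrophages, differed by 1.75 (SE 0.29) and the lysozymes Lyz2 and Lyz1 by 1.36 (SE 0.41) and 1.04 (SE 0.22), all with overlap. The pan-macrophage receptor Csf1r lay at 0.43 (SE 0.18), the surface marker Adgre1 at 0.13 (SE 0.21) and the mannose receptor Mrc1 at -0.06, a direction within the shift of the scaling.

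Of macrophage genes outside the list, 3 were picked after their values were seen, for their difference. Cd209b, a lectin of marginal zone and sinus macrophages, differed by 3.75 (SE 0.40), Timd4, a phosphatidylserine receptor, by 2.97 (SE 0.28) and Siglec1, a sialic acid receptor of sinus macrophages, by 1.98 (SE 0.20), each without overlap. Among dendritic cell genes 7 of 8 stood higher (median 0.77, 0.42 without background correction), with Siglech at 2.06, Cd86 at 1.39 and Cd209a at -0.13.

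Neutrophil genes stood higher in 13 of 13 members (median 1.05, 1.01 with bounds, 0.43 without background correction), but with overlap for all except Ltf. S100a9 read 7.13 to 11.60 on high arrays and 4.79 to 8.08 on low arrays, a difference of 2.76 (SE 0.45). The list mean separated the high arrays among themselves, into 6 at 7.25 to 8.13 and 5 at 5.48 to 6.42. All of the 6 except wild type rest 10 were run arrays, and all of the 5 except transgenic run 3 were at rest. The 5 high arrays with the highest 3-gene means were all among the 6. The remaining 1 was transgenic run 11, which had the lowest 3-gene mean of the high arrays and read 7.75. Whether this step goes with the run or with the 3-gene mean was not tested.

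Interferon response genes stood higher in 10 of 10 members (median 0.80, or 0.33 with the slow fibre covariate). Usp18, a feedback inhibitor of interferon signalling, was the 1 member without overlap, at 8.66 to 10.47 on high arrays against 7.21 to 8.39. Transgenic rest 7 gave the highest value of Usp18, Irf7, Isg15 and Ifit3, and its list mean of 10.36 compared with 7.90 to 9.12 on the low arrays.

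**Figure D3:**
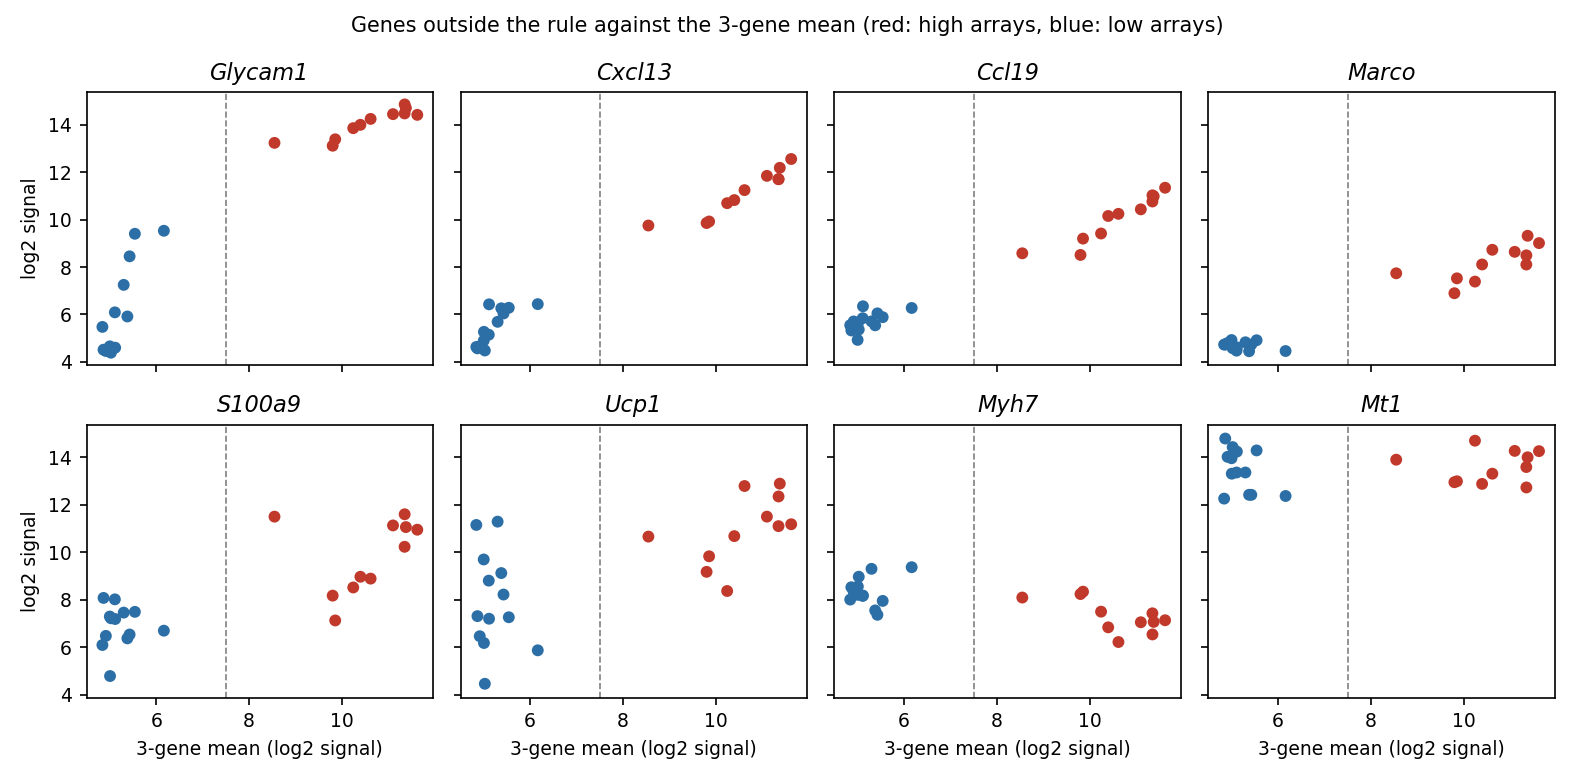
Levels of 8 genes that the rule did not use (log2 signal) are plotted against the mean of Cd79b, Cd3e and Fcmr (log2 signal) on the 24 arrays, with high arrays in red, low arrays in blue and the threshold of 7.5 dashed. Glycam1, Cxcl13, Ccl19 and Marco separate the sides, S100a9, Ucp1 and Myh7 overlap, and Mt1 spans the same range on both.

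Adipocyte genes stood higher in 13 of 13 members, all with overlap. Their median was 0.53, and 0.30 without background correction and 0.20 with the slow fibre covariate. Among them were Thrsp, a lipogenic regulator, at 1.29 (SE 0.42) and Adipoq (adiponectin) at 0.81 (SE 0.31). Brown adipocyte genes stood higher in 4 of 6 members (median 0.12), with Pank1 at 0.16 and Dio2, a thyroid hormone deiodinase, at 0.09. Ucp1, the uncoupling protein of brown fat, read from 8.37 to 12.89 (median 11.10) on high arrays and from 4.46 to 11.29 (median 7.31) on low ones, a difference of 3.15 (SE 0.78). It exceeded 11 on 6 high arrays and on 2 low arrays, wild type rest 1 and transgenic rest 11. Cidea, a lipid droplet protein of brown fat, differed by 2.22 (SE 0.51), while Cox7a1 and Ppargc1a, which muscle also expresses, lay at -0.17 and -0.02, the latter turning to 0.00 under median scaling. Whether fat had a part in the lymphoid difference was not tested.

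**Figure D4:**
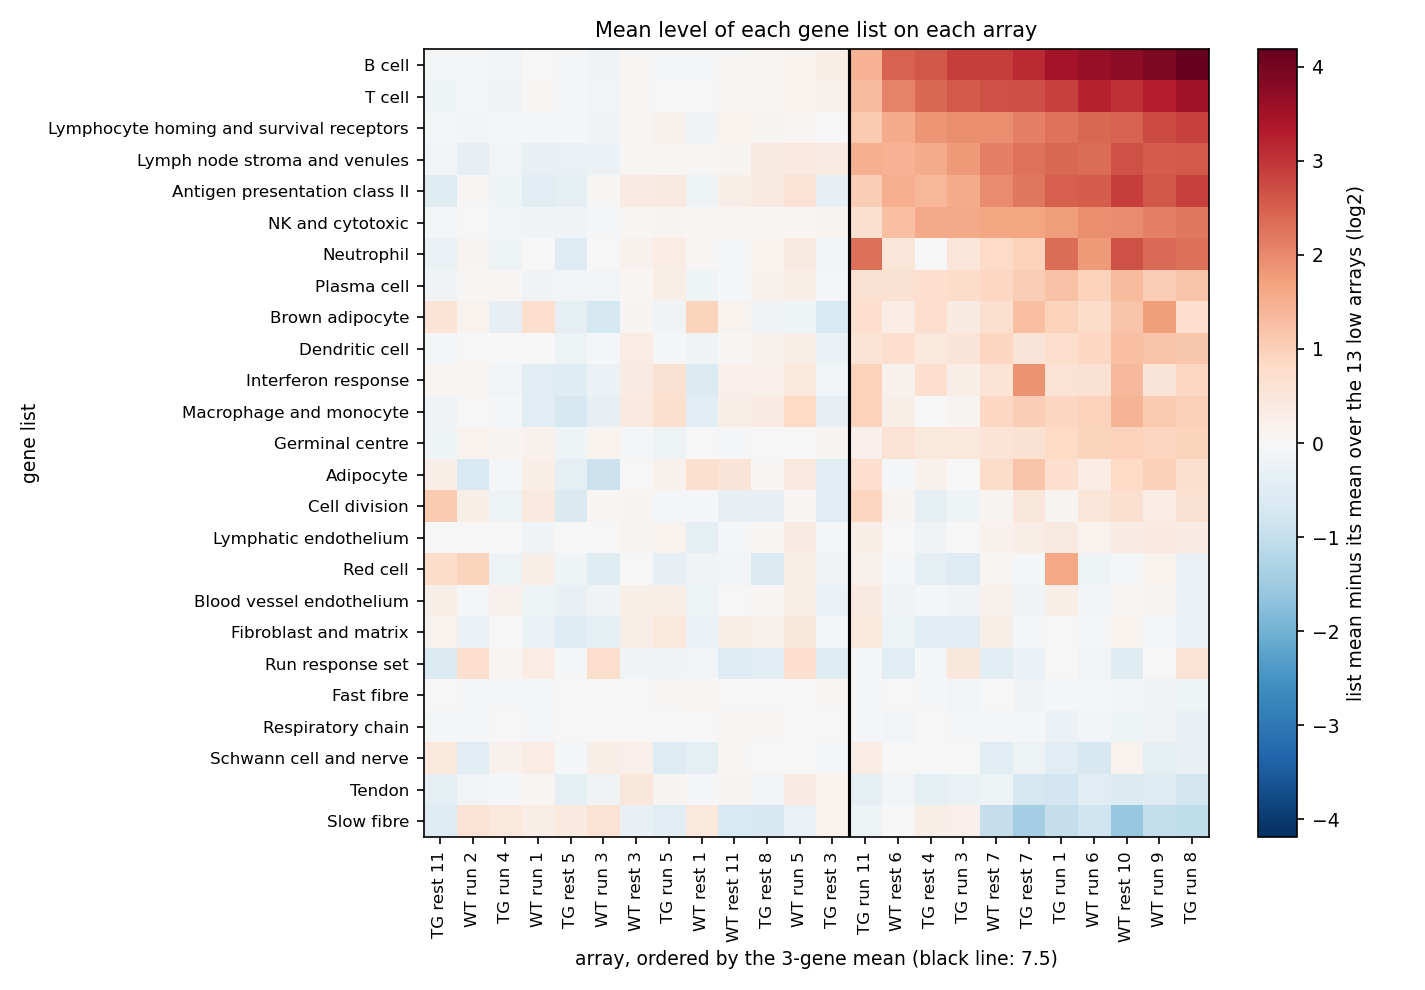
The mean of each of 25 gene lists on each array, minus its mean over the 13 low arrays (log2), is shown as colour, with arrays ordered by the 3-gene mean and the threshold of 7.5 as a black line. Lymphoid lists are red across the 11 high arrays, the neutrophil list is red on 6 of them, and the slow fibre list is blue on the 7 with the highest 3-gene means.

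Genes lower on high arrays without overlap, or by at least 2-fold, were fewer than those higher, and their differences were smaller. By any amount, only 38.6% of all genes stood higher. Of the 19 without overlap, the largest was that of Clcn1, the muscle chloride channel, at 5.81 to 6.95 on high and 6.98 to 7.79 on low arrays, a difference of -0.76 (SE 0.13). En1, a homeobox factor, differed by -0.72 (SE 0.09), Tbx4, a hindlimb T-box factor, by -0.63 (SE 0.09) and Dpf3, a chromatin remodelling subunit, by -0.70 (SE 0.13). Tefm, which lets mitochondrial RNA polymerase elongate, lay at 9.07 to 9.42 against 9.54 to 9.83, a difference of -0.41 (SE 0.03), and Mrpl55 and Sirt5, also mitochondrial, each at -0.38.

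These separations depended on the scaling. With median scaling 1 gene, Tmod1, a capping protein of thin filaments, lay lower without overlap, in place of the 19, and Clcn1, En1 and Tefm differed by -0.52, -0.54 and -0.32.

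Genes of slow fibres all stood lower, 15 of 15 members with a median of -0.70, and all overlapped. Myh7, the slow myosin heavy chain, read 6.22 to 8.34 (median 7.14) on high arrays and 7.37 to 9.37 (median 8.21) on low ones, a difference of -1.04 (SE 0.29). Tnni1, slow troponin I, differed by -1.01 (SE 0.39) and Myl6b, a slow myosin light chain, by -0.94. Of the 6 genes at least 2-fold lower, 3 had a symbol, Myh7, Tnni1 and Myh6 (-1.16, SE 0.57), the last chosen after its value was seen.

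The slow fibre list did not differ evenly over the high arrays. Its mean was 11.99 to 12.46 on the 4 high arrays with the lowest 3-gene means and 10.63 to 11.36 on the other 7, against 11.52 to 12.82 on low arrays. On 6 of the 13 low arrays it lay under 12. Whether fibre type had a part in the lymphoid difference was not tested.

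Tendon genes stood lower in 7 of 7 members (median -0.45), all with overlap. Scx (scleraxis, the tendon transcription factor) read 7.31 to 8.54 on high and 8.42 to 9.36 on low arrays, a difference of -0.90 (SE 0.15). Respiratory chain genes were lower in 15 of 15 members, but by a median of only -0.13 and with no separation. Over all genes the median was -0.08, and 38.6% stood higher.

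Fast fibre genes had a median of -0.01, but 8 of the 13 members had means of 14.98 to 15.23 on either side, near the top of the normalised scale, where little difference can show. The other 5 (Myh4, Myh1, Mybpc2, Actn3 and Casq1) were all lower, by -0.16 to -0.31, with overlap. Blood vessel endothelium had a median of -0.02, red cell genes of -0.01 and lymphatic endothelium of 0.04, although Stab2, a scavenger receptor of sinusoidal and lymphatic endothelium, lay at 1.16 (SE 0.21) and Lyve1, a hyaluronan receptor, at 0.80 (SE 0.32). Lyve1 was at 0.01 with the slow fibre covariate and Stab2 at 0.53 without background correction. The blood vessel and red cell medians turned positive under median scaling, at 0.01 and 0.06. The lymphatic factors Prox1 and Flt4 lay at -0.06 and 0.00. Fibroblast and matrix genes had a median of -0.15 and Schwann cell and nerve genes of -0.15.

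Run and genotype contrasts were not used by the rule and could be tested. The run called 2 of 14984 genes (0.0133%) with limma at an adjusted p under 0.05, Mt1 and Mt2, metallothioneins that bind zinc and respond to stress hormones. With the split as a covariate it called 3 (0.02%), these 2 and a probe without a gene symbol. Genes with an unadjusted limma p under 0.05 went from 597 (3.98%) to 787 (5.25%), where chance gives a share of about 0.05. The median standard error over genes went from 0.123 to 0.111 and was smaller for 77.8% of genes. The other 18 of the 20 genes of the run response list did not pass, and Ppargc1a, a coactivator of mitochondrial genes induced by exercise, stood at 1.12 (SE 0.21, limma adjusted p = 0.0671).

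Mt1 rose after the run on both sides of the split. On low arrays it read 12.26 to 13.36 at rest (n = 7) and 13.96 to 14.79 after the run (n = 6). On high arrays it read 12.73 to 13.31 at rest (n = 5) and 13.59 to 14.70 after the run (n = 6). Rest and run did not overlap on either side, and the rise with the split as a covariate was 1.34 (log2, SE 0.16, limma adjusted p = 0.000219). It was 1.51 (SE 0.22) on low and 1.14 (SE 0.23) on high arrays, and the difference between these, -0.37 (SE 0.32), did not pass the test (limma adjusted p = 0.869).

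Mt2 rose by 1.61 (SE 0.23, limma adjusted p = 0.00299) with the split as a covariate, by 1.68 (SE 0.32) on low and 1.52 (SE 0.35) on high arrays. Its levels were 5.70 to 7.59 at rest and 7.30 to 8.94 after the run on low arrays. On high arrays they were 5.72 to 7.22 at rest and 7.28 to 8.62 after the run, so only the low side overlapped. The transcription factor Atf3, an early stress gene, stood at 2.22 (SE 0.57) on low and 1.54 (SE 0.62) on high arrays, with an adjusted p of 0.126 by limma for both sides together. Fos, an immediate early gene, stood at 0.92 (SE 0.36) on low and -0.02 (SE 0.39) on high arrays, a difference of -0.93 (SE 0.54, limma adjusted p = 0.869).

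**Figure D5:**
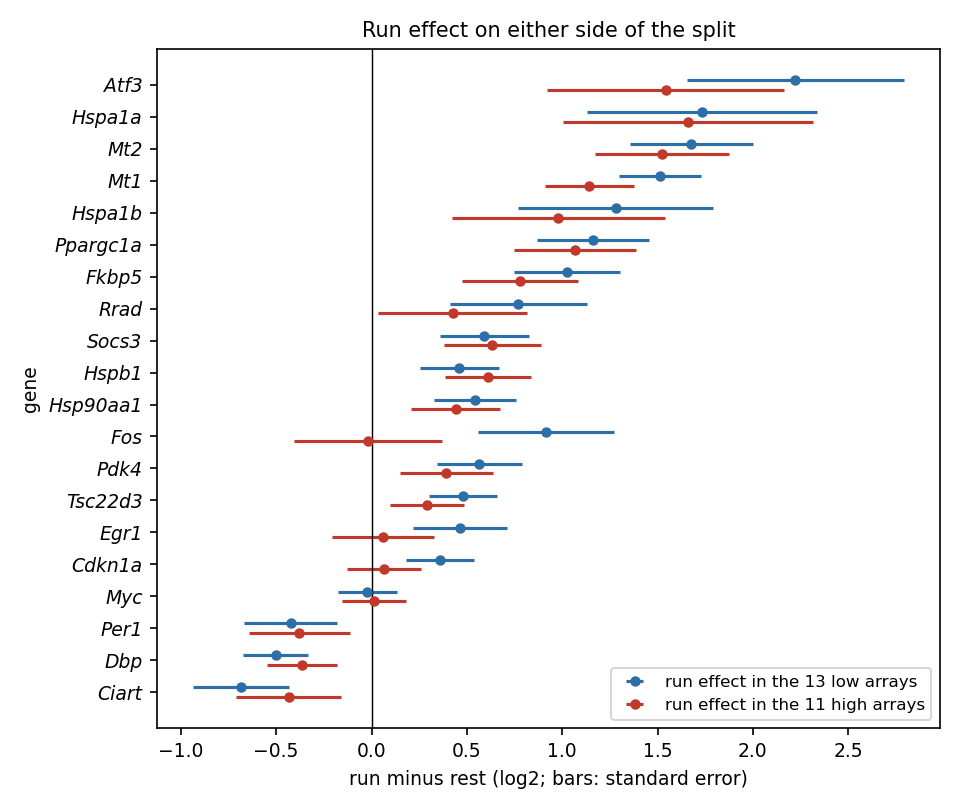
The run effect (run minus rest, log2) of the 20 genes of the run response list is plotted for the 13 low arrays in blue and the 11 high arrays in red, with bars of 1 standard error. Mt1 and Mt2 lie well above 0 on both sides, and Fos lies higher on low than on high arrays, a difference that did not pass the test.

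No gene passed the test for a run effect that differs between high and low arrays. Limma called 0 genes at an adjusted p under 0.05, with 514 (3.43%) at an unadjusted p under 0.05 and a lowest adjusted p of 0.869. The 3 smallest p belonged to Plod2, a collagen lysyl hydroxylase (-0.70, SE 0.17), Dnaja1, a cochaperone (-0.73, SE 0.19), and Kcnh1, a potassium channel (-0.83, SE 0.22).

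The genotype contrast called 36 genes (0.24%) with limma, 22 higher and 14 lower in transgenic mice. With the split as a covariate it called 55 (0.367%), 36 higher and 19 lower, and all 36 were among them. Ctu1, a tRNA modifying enzyme, was lower by -1.99 on the log2 scale (SE 0.18, limma adjusted p = 8.63e-07), Hps5, a lysosome trafficking subunit, by -2.54 (SE 0.26, limma adjusted p = 5.18e-06), and Nosip, a regulator of nitric oxide synthase, was higher by 1.22 (SE 0.12, limma adjusted p = 3.47e-06). Ccdc117 was called with the split and not without it (1.17, SE 0.25, limma adjusted p = 0.0412). The count with the split was 33 without wild type run 9 and 34 without wild type rest 10.

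Of the B cell, T cell, class II, stromal and homing lists, 0 members were called in the run or genotype contrasts by limma, with or without the split; with 0.0133% (run) and 0.24% (genotype) of all genes called, that count says nothing about the members. Their median run effects were smaller with the split as a covariate, going from 0.37 to 0.13 for B cell genes, from 0.33 to 0.09 for T cell genes and from 0.36 to 0.16 for class II genes. Neutrophil genes had a median run effect of 0.74 without the split as a covariate and 0.55 with it, with 0 of 13 called. The median difference of their run effect between the sides was 0.63 (log2, high minus low), with 0 called. Mef2b, a transcription factor in the germinal centre list, was called lower in transgenic mice (-0.67, limma adjusted p = 0.00368), although it differed by only 0.12 (SE 0.12) along the split.

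No gene passed the test for a genotype effect that differs between the sides either. Limma called 0 genes, with 321 (2.14%) at an unadjusted p under 0.05. The smallest p was that of Plek, pleckstrin of platelets and white cells, at 1.98 (SE 0.38, limma adjusted p = 0.529). It read 4.34 to 4.87 on the 5 wild-type and 6.98 to 8.25 on the 6 transgenic high arrays, and 4.71 to 6.12 and 5.05 to 6.52 on the low arrays of the same genotypes. The next 2 were Tbx1, a T-box factor (-0.94, SE 0.22), and Ccn1, a matrix protein (1.13, SE 0.28).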

How the data were processed

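Expression was measured on 24 Illumina mouse bead arrays. The deposited intensity of each probe and array is linear and not normalised, per the file headers, with a detection p-value deposited beside it. The authors' log2 values came from R 3.1.1 and limma 3.20.8, per the submitters' processing notes, and differed by at most 0.0269 from those computed here. They set the split.

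Background correction by detection p and quantile normalisation used neqc (offset 16, limma 3.58.1, R 4.3.3). Probes with detection p under 0.05 on at least 6 arrays were kept (21788 of 45281), then the brightest per symbol, giving 14984 features called genes here, 11574 with a symbol. In the platform annotation, which can be old, 34885 probes had 1 symbol, 18 several and 10378 none. Levels are not compared between probes, and the number of arrays limits the precision.

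High minus low came from limma with the 4 group means and a high/low term. Labels were set against the split with Fisher's exact test. Run, genotype and their interactions with the split were tested by limma over all genes, with Benjamini-Hochberg adjustment. The sample titles give a replicate number and no animal, so p-values measure the spread between arrays, which may be technical. No slide or scan date was used. Named by rule were the 15 largest separate differences each way, the rule's genes and markers, up to 4 members of each of 25 lists with the largest differences, up to 10 called genes each way (else the 3 smallest p) and the run response list. Other list members, Cd209b, Timd4, Siglec1, Itga7, Myh6 and Tmod1 were picked after their values were seen. The arrays, lists and naming rule were chosen with earlier results of these data known. Fits were tested on simulated data. Alternatives covered the cut, values, scaling, background, detection filter, probe choice, group term, weights, covariate, replicate block and each array left out; the slow fibre mean was added after seeing the data. Deviations of same-numbered arrays of different groups were mixed (r from -0.612 to 0.705 over 19 pairs, 11 above 0.1 and 8 not). The deviations were taken from the group means without the split term. Most of the 8 join a high with a low array, such as wild type rest 1 with transgenic run 1 (r = -0.612), and so carry the split. Those within a side were wild type rest 6 with wild type run 6 (r = -0.127) and wild type run 5 with transgenic rest 5 (r = -0.159). Since not every pair passed 0.1 and no label ties the numbers to animals, they were not used as pairs.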

Additional observations from a re-analysis of the deposited data

Results flagged for a closer look

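In each group of 6, list means and array measures were screened for an array whose gap to its nearest neighbour was large against the range. Of 112 such groups 3 stood out, which is fewer than the share of about 1 in 20 that chance gives. The mean of the neutrophil list on wild type rest 10, a high array, was 8.13 (log2 signal) against 5.41 to 6.28 on the other 5 arrays of its group. The mean of the red cell list on transgenic run 1, also high, was 9.91 against 7.73 to 8.45. The mean of the Schwann cell and nerve list on transgenic rest 11, the low array with the lowest 3-gene mean, was 9.97 against 9.34 to 9.55.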

How the results depend on the processing

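Cuts at 7.0 and 8.0 and the rule on neqc values gave the same 11 high arrays. Under median scaling 1 gene was lower without overlap and 3 at least 2-fold lower, and without background correction 326 genes were at least 2-fold higher and 0 lower. With probes detected on all 24 arrays, 218 genes were higher without overlap and 260 at least 2-fold. With the slow fibre mean as a further covariate 10 genes were at least 2-fold lower, against 6 without it. The slow fibre median was then 0.01, which the covariate sets, as it is the mean of that same list. The run with the split called 6 genes without background correction, 6 with probes detected on all arrays, 17 with array weights (5 without the split), 9 with the 3-gene mean as covariate and 85 with the slow fibre mean, which gave 95 for genotype. With the replicate number as a block the run with the split called 0 genes, with Mt1 at 1.10 and Mt2 at 1.38, and genotype 5 without the split (Ctu1, Hps5, Nosip and 2 unnamed probes) and 2 with it (both unnamed probes). The block also gave medians of -0.16 for slow fibre, 0.30 for adipocyte and 0.00 for cell division genes, and -0.35 for Scx. Leaving out each array, calls ranged from 28 to 40 for genotype and from 33 to 54 with the split, and from 2 to 4 for the run (4 without wild type run 6) and from 2 to 7 with the split (7 without transgenic rest 5, 5 without wild type run 6 or transgenic run 11). The interactions stayed at 0. Genes at least 2-fold higher ranged from 616 to 715 and lower from 3 (without wild type rest 1, wild type rest 10 or wild type run 3) to 18 (without transgenic rest 4; 15 without wild type rest 6, 12 without transgenic run 5, 10 without transgenic run 3), and genes without overlap from 484 to 638 higher and 19 to 35 lower, both highest without transgenic run 11. The cause of these differences was not tested. Of 1574 differences of 162 named genes under other settings, 1497 moved by less than 1 residual SD, 77 by more, and 0 of those without overlap changed sign. Changes of sign were counted only for genes without overlap, and some overlapping genes did change. With the replicate block Hspa1a went from -0.64 to 1.04 and Atf3 from -0.51 to 1.11. With the slow fibre covariate Gsn went from 0.26 to -1.21. The 77 included Glycam1, Cxcl13, Cd79b and Ccl19, whose differences without background correction were smaller, at 6.58, 4, 3.87 and 2.98. Signals near background limit folds of genes dark on low arrays.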
